A study of Bombyx mori with 6 samples.

Results

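CPH18, CPH19, CPH20, CPH21, CPH22 and CPH23 are 6 genes of the silkworm, Bombyx mori, that encode cuticular proteins and lie side by side in the genome. They were picked by NCBI gene number (100379478, 100379477, 100379476, 100379475, 100379474 and 100379473), and the RefSeq gene table gave the same symbol for each of the 6, out of 15884 genes in the count table. RNA sequencing was done on testes from larvae on day 5 of the fifth instar. The animals were of a genetic male sterile line (GMS), which the labels give as the mutant genotype, and of strain 898WB, given as wild type (WT). There were 3 libraries of GMS and 3 of WT. The mutated gene is not given in the labels, nor whether a library came from 1 animal or a pool, so the spread between libraries may be partly technical.

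The insect cuticle is secreted by the epidermis and by the lining of the trachea, foregut and hindgut, and is built from chitin fibres and a large set of structural proteins. Most cuticular proteins belong to families named for a shared motif or composition, such as CPR proteins with the Rebers and Riddiford chitin-binding consensus, glycine-rich CPG proteins and Tweedle (CPT) proteins. CPH stands for hypothetical cuticular proteins, which were assigned to the cuticle but carry no such family motif. No separate function is known here for any single gene of CPH18 to CPH23, so the genes are described by level and position. In textbook accounts cuticular protein genes are switched on and off in the epidermis by pulses of the moulting hormone ecdysone.

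The GMS libraries held 19627477 to 27941504 counted reads and the WT libraries 21690617 to 28358501. A count of 3 reads, used below as the detection floor, was 0.103 to 0.148 CPM in GMS and 0.110 to 0.141 CPM in WT, where CPM is the read count scaled to library size with TMM normalisation factors. Intervals and floors cover counting error only. WT replicate 3 stood apart from the other WT libraries on the second principal component of log2 CPM. Germ cell transcripts were abundant in both strains. The testis beta-tubulin gene Tub4 averaged 24830 ± 359 CPM in GMS and 32823 ± 2535 CPM in WT, and the alpha-tubulin gene Tua3 averaged 7785 ± 116 CPM in GMS and 9191 ± 623 CPM in WT (SD, n = 3 each).

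All 6 genes were well above the detection floor in GMS testes, and 4 of the 6 were at about the floor or below it in WT testes. They were chosen because of this difference between GMS and WT, so it is described here without a test. The 6 genes together summed to 255 ± 11.96 CPM in GMS and 1.69 ± 0.212 CPM in WT (SD, n = 3 each), or 18702 reads in the GMS libraries and 123 in the WT libraries. In the bulk tissue, more cells of a type that makes these transcripts and more transcript per cell cannot be told apart. For each gene all 3 GMS libraries lay above all 3 WT libraries, as they did for 26.2% of all 12029 genes tested, and nothing is read from that count.

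CPH21 was the member with the most reads. It stood at 85.1, 81.2 and 84.0 CPM in GMS replicates 1, 2 and 3, against 0.110, 0.123 and 0.0471 CPM in the WT libraries. The WT values rest on 3, 3 and 1 reads, so all 3 lie at or below the floor. The summed counts of 6137 reads in GMS and 7 in WT gave a ratio of 868, with a counting interval (95%, exact binomial) of 421 to 2159.

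CPH18 stood at 76.4, 68.5 and 62.8 CPM in GMS, against 0.147, 0.123 and 0.141 CPM in WT. The WT libraries held 4, 3 and 3 reads of it, again at about the floor. The ratio from 5039 reads in GMS and 10 in WT was 499 (counting interval 271 to 1041). Among the GMS libraries it varied more than CPH21 did.

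CPH23 stood at 58.6, 55.5 and 57.1 CPM in GMS, against 0.331, 0.573 and 0.566 CPM in WT. Unlike CPH21 and CPH18 it had more than 3 reads in every WT library, with 9, 14 and 12. The ratio was 119 (counting interval 85.1 to 170.5).

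CPH19 stood at 37.7, 33.9 and 31.8 CPM in GMS, against 0.919, 1.02 and 0.896 CPM in WT. It had the most reads of the 6 genes in WT, with 25, 25 and 19. Its ratio of 36.1 (counting interval 28.4 to 46.5) was the smallest of the 6, and its interval did not overlap that of CPH18, CPH21, CPH22 or CPH23.

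CPH22 and CPH20 were the low members of the group. CPH22 stood at 8.52, 9.91 and 7.21 CPM in GMS, against 0, 0.0409 and 0 CPM in WT. CPH20 stood at 2.32, 3.25 and 2.41 CPM in GMS, against 0, 0.0409 and 0 CPM in WT. For both genes the whole WT group held 1 read, in WT replicate 2, so the ratios of 617 (counting interval 110.3 to 24394) for CPH22 and 194 (counting interval 34.4 to 7701) for CPH20 are loosely bounded.

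**Figure D1:**
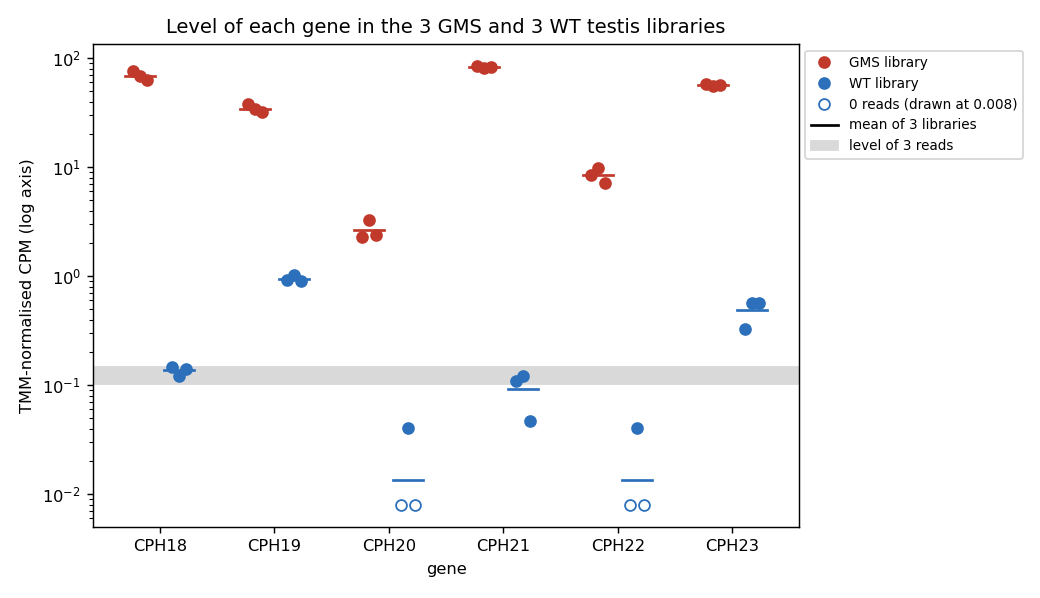
TMM-normalised CPM (log axis) of CPH18 to CPH23 in each GMS library (red) and WT library (blue), with the mean of 3 libraries as a short line, the level of 3 reads as a grey band, and libraries with 0 reads as open circles at 0.008. The GMS points run from 2.32 to 85.1 CPM and the WT points from 0 to 1.02 CPM.

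On the log2 scale the fitted differences of GMS minus WT, given as a description with their standard errors, were 9.69 (0.14) for CPH21, 8.93 (0.16) for CPH18, 8.82 (0.41) for CPH22, 7.14 (0.50) for CPH20, 6.87 (0.15) for CPH23 and 5.18 (0.12) for CPH19. The edgeR fit called 17.6% of 12029 genes higher in GMS and 18.6% lower (Benjamini-Hochberg adjusted p under 0.05), and 0.49% of genes had a fitted difference of at least 5 on the log2 scale. All but CPH19 passed the filter on low counts through the GMS libraries alone, so a count of called genes among the 6 says nothing further. The values of CPH20 and CPH22 depend on the single WT read of each. Without WT replicate 2, which held it, the fitted differences were 9.02 for CPH20 and 10.70 for CPH22.

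Levels of different genes were compared by the deposited RPKM, which divides by the length used in counting. For CPH23 that length was 346 bases, against a RefSeq gene length of 666, and for CPH21 it was 551 against 684. The place of CPH23 depends on this short length. By mean CPM in GMS it was below CPH21 and CPH18, at 57.0 against 83.4 and 69.2. In GMS the order was CPH23 at 69.1 ± 2.44 RPKM, CPH21 at 63.5 ± 2.09, CPH18 at 60.6 ± 5.98, CPH19 at 22.6 ± 1.99, CPH22 at 2.82 ± 0.419 and CPH20 at 1.65 ± 0.302 RPKM (SD, n = 3). The ranges of CPH21 and CPH18 overlapped, and CPH18 was the higher in 1 of 3 libraries. The lowest CPH23 value, 66.4 RPKM, was just above the highest CPH21 value, 65.0 RPKM. The 3 high genes thus lay within 1.14-fold of each other by their means, CPH18 was 2.68 times CPH19, and CPH19 was 8.03 times CPH22.

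In WT the order differed. By their means CPH19 came first at 0.596 ± 0.0509 RPKM and CPH23 next at 0.569 ± 0.156 RPKM. Their ranges overlapped, and CPH19 was the higher in 1 of 3 libraries. CPH18 followed at 0.115 ± 0.0103 and CPH21 at 0.0686 ± 0.0306 RPKM (SD, n = 3), both from 10 reads or fewer, and CPH20 and CPH22 rest on 1 read each and have no order. CPH19 thus stood in place 4 of 6 in GMS, while in WT it and CPH23 were the highest, in no settled order by RPKM. Their near tie also depends on the length used for CPH23.

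The makeup of the group differed in the same way. In GMS, CPH21 gave 32.7 ± 1.35%, CPH18 27.1 ± 1.42% and CPH23 22.4 ± 0.795% of the summed CPM of the 6 genes, together 82.1 ± 0.901%, and CPH19 gave 13.5 ± 0.538% (SD, n = 3). In WT, CPH19 gave 56.2 ± 4.21% and CPH23 28.7 ± 6.24%, while CPH21 gave 5.52 ± 2.35% and CPH18 8.24 ± 1.71% (SD, n = 3). The shares of WT rest on 35 to 47 reads per library.

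**Figure D2:**
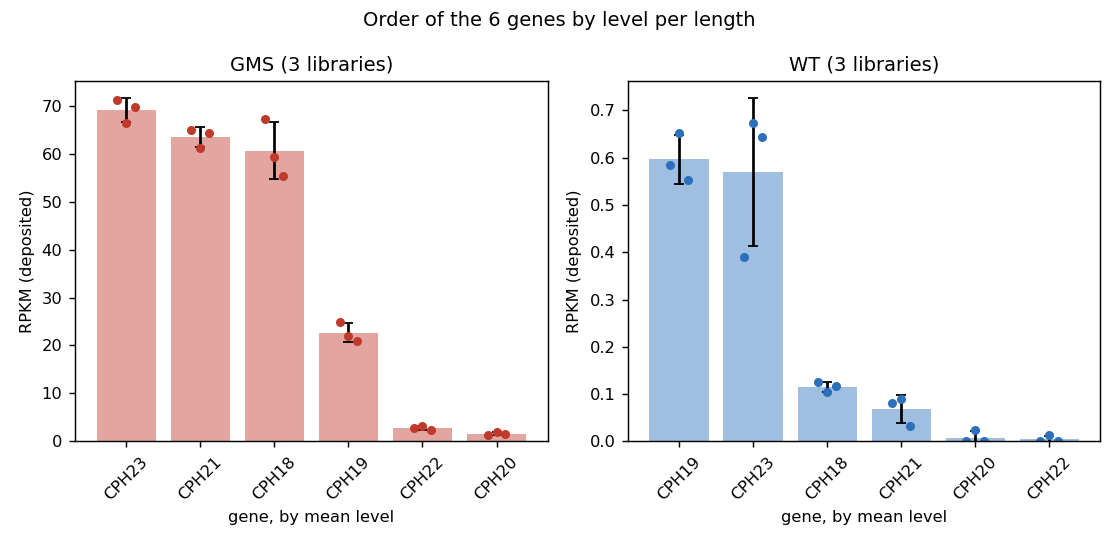
Deposited RPKM of the 6 genes ordered by mean level in GMS (left) and WT (right), with bars for means, error bars for SD and points for the 3 libraries; the vertical axes differ in scale. CPH23, CPH21 and CPH18 lead in GMS at 60.6 to 69.1 RPKM, and CPH19 and CPH23 lead in WT at 0.569 to 0.596 RPKM.

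The GMS libraries differed little from each other, to a degree that depended on the gene. The coefficient of variation of CPM over the 3 libraries was 2.37% for CPH21 and 2.70% for CPH23, about what counting error alone gives at these depths (2.23% and 2.70%). CPH18 varied by 9.85% and CPH19 by 8.68%, against counting errors of 2.45% and 3.46%. Both were highest in GMS replicate 1 and lowest in GMS replicate 3. CPH22 varied by 15.8% and CPH20 by 19.3%, against 7.003% and 12.7% from counting, and both were highest in GMS replicate 2. The genes thus did not all peak in the same GMS library, and the widest spread, that of CPH20, was 1.40-fold.

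The 6 genes are consecutive in the RefSeq annotation, in the order CPH23, CPH22, CPH21, CPH20, CPH19, CPH18, with 0 annotated genes between them. They lie inside a longer array on chromosome 11 of 29 annotated loci, 23 of them CPH genes, that runs from CPH27 to CPH6. The other 17 CPH genes of the array had few counted reads in both strains. They summed to 38 reads over the 3 GMS libraries and 75 over the 3 WT libraries, against 18702 in GMS and 123 in WT for CPH18 to CPH23, and 8 of the 17 had no read in any library. Only CPH34 of the 17 had enough reads to be tested. CPH34 aside, no gene of the 17 had more than 4 reads in a GMS library or 5 in a WT library.

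On the CPH18 side the nearest genes with values were nearly without reads. These genes, CPH17, CPH16, CPH15 and CPH14, had 7, 0, 0 and 2 reads over the GMS libraries and 4, 0, 0 and 0 over the WT libraries, so any difference there was not detectable at this depth. The locus directly beside CPH18, LOC119629166, was not analysed here. All 12 CPH genes on that side, CPH6 to CPH17, summed to 15 reads in GMS and 16 in WT.

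On the CPH23 side the next gene with values, LOC101735346, was also high in GMS. This protein-coding gene, of no stated function, had 162, 168 and 214 reads in GMS replicates 1, 2 and 3, and 0 in each WT library. Had the whole WT group held 3 reads, this gene would have had a ratio of 179, which is not a lower bound. With the 0 reads counted in WT, the lower end of its counting interval was 145. It passed the filter on low counts through the GMS libraries alone, so its call as higher by edgeR (adjusted p = 2.02e-05) adds nothing to these counts. Beyond it, LOC105842386 was not analysed here, and CPH24 and CPH25 had 0 and 5 reads in GMS and 2 and 2 in WT. CPH34 went the other way, with 5, 5 and 7 reads in GMS and 12, 22 and 12 in WT. Its log2 difference was -1.43, standard error 0.39 (edgeR adjusted p = 0.0254). That call was lost without GMS replicate 1, 2 or 3 (edgeR adjusted p = 0.0702, 0.0838 and 0.0784), with DESeq2 (adjusted p = 0.0691) and with the replicate block (edgeR adjusted p = 0.0542).

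Beyond the array the nearest tested genes did not pass the threshold. LOC101736156, next to the CPH27 end, had 256 reads in GMS and 230 in WT (log2 difference 0.14, standard error 0.22, edgeR adjusted p = 0.656). LOC101746868, near the CPH6 end, had 3147 reads in GMS and 3118 in WT (log2 difference 0.00, standard error 0.07, edgeR adjusted p = 0.985). Both were named after their values were seen. These tandem genes are related, and reads of close copies may have been divided between them, or left out, by the authors' counting. That was not tested.

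**Figure D3:**
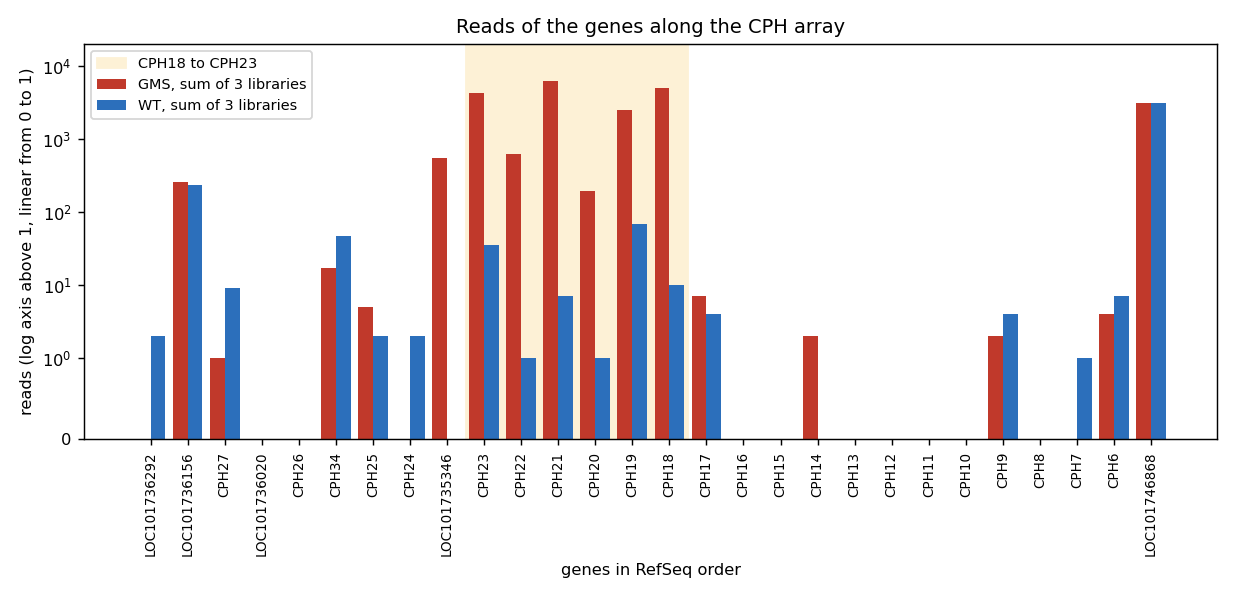
Reads summed over 3 GMS libraries (red) and 3 WT libraries (blue) for the genes of the CPH array and the nearest genes outside it, in RefSeq order, on an axis that is linear from 0 to 1 and logarithmic above; loci without values are left out. CPH18 to CPH23 (shaded) and LOC101735346 hold 196 to 6137 reads in GMS, and the other CPH genes hold 17 or fewer.

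Among all cuticular protein genes 4 of the 6 held high places in GMS and lower ones in WT. Of 205 cuticular protein genes, ranked by mean RPKM, CPH23, CPH21, CPH18 and CPH19 held places 2, 3, 4 and 8 in GMS and places 37, 86, 74 and 35 in WT. CPH22 and CPH20 held places 26 and 31 in GMS, and 162 and 150 in WT, the last 2 from 1 read each. The places of CPH23 depend on the short length used for it in counting. The first place in both strains belonged to CPH43, also a hypothetical cuticular protein, at 721 ± 29.1 RPKM in GMS and 984 ± 114 RPKM in WT (SD, n = 3 each). The 6 genes made up 16.6 ± 0.502% of the summed CPM of cuticular protein genes in GMS and 0.122 ± 0.0193% in WT. The other 199 genes summed to 1281 ± 29.8 CPM in GMS and 1400 ± 114 CPM in WT (SD, n = 3 each), with overlapping ranges, 1250 to 1310 CPM in GMS and 1282 to 1509 CPM in WT. CPH43 made up most of this sum, at 764 ± 24.0 CPM in GMS and 1084 ± 108 CPM in WT. Without it, a setting chosen after seeing the data, the remaining 198 genes summed to 517 ± 6.96 CPM in GMS and 316 ± 8.86 CPM in WT (SD, n = 3 each), 1.63 times as much in GMS, and the 6 genes came to 33.1 ± 0.758% of the cuticular sum in GMS and 0.533 ± 0.0604% in WT.

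**Figure D4:**
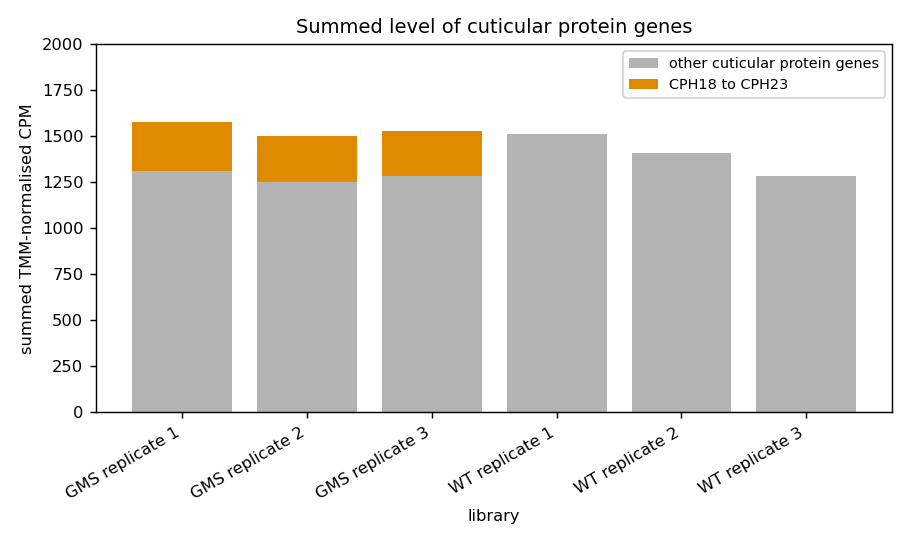
Summed TMM-normalised CPM of CPH18 to CPH23 (orange) stacked on that of the other 199 cuticular protein genes (grey), for each GMS and WT library. The orange part is 245 to 269 CPM in GMS and 1.51 to 1.92 CPM in WT, too thin to see there.

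The CPH genes outside the group were called in both directions. Of 28 other CPH genes 9 were tested, 2 were higher in GMS, 4 lower and 3 did not pass, where 17.6% of all genes tested were higher and 18.6% lower, with a median log2 difference of -0.35, against 0.05 over all genes tested. CPH4 averaged 12.4 ± 1.39 CPM in GMS and 4.56 ± 0.532 CPM in WT (log2 difference 1.45, edgeR adjusted p = 0.000170). CPH5 rose by 0.53 on the log2 scale, a call lost without any one library but WT replicate 3 (edgeR adjusted p = 0.0462, and 0.0612 to 0.151 without the others). The largest falls were those of CPH30, at 0.384 ± 0.0573 CPM in GMS and 4.28 ± 0.902 CPM in WT, CPH33, at 2.43 ± 0.226 CPM in GMS and 21.2 ± 0.234 CPM in WT (SD, n = 3 each), and CPH34. No other CPH gene had a called log2 difference of 5 or more in size.

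Over all cuticular protein families genes were called in both directions. Of 199 genes other than the 6, 34 had no reads and 69 were tested, of which 21 were higher in GMS, 22 lower and 26 did not pass, beside 17.6% higher and 18.6% lower over all genes tested, with a median log2 difference of 0.01. Where a level of 1 CPM in 3 or more libraries was required, 17 were higher and 13 lower, and with library totals in place of TMM factors 27 were higher and 21 lower. The 3 of smallest p were CPR70, CPG20 and CPT4, all higher in GMS, by 4.86, 6.19 and 3.83 on the log2 scale (edgeR adjusted p = 4.23e-07, 5.55e-07 and 6.64e-07). CPR70 stood at 62.0 ± 1.32 CPM in GMS and 2.12 ± 0.366 CPM in WT (SD, n = 3 each). Of the 69 genes, 4 had a called rise of at least 5 on the log2 scale.

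**Figure D5:**
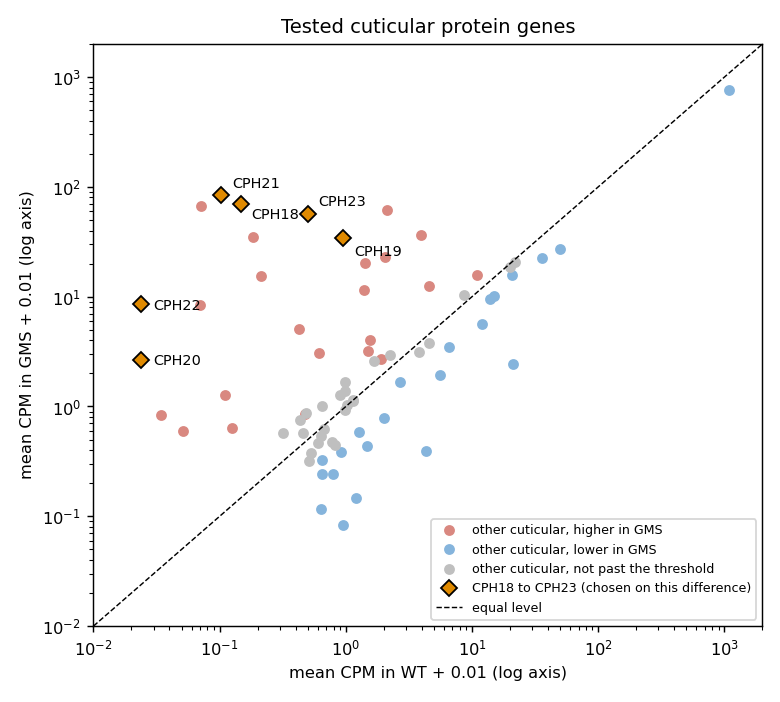
Mean CPM in GMS (vertical) against mean CPM in WT (horizontal) for the tested cuticular protein genes, both on log axes after adding 0.01, with CPH18 to CPH23 as orange diamonds and the other 69 genes coloured by their edgeR call. The 6 genes lie above the line of equal level, with 21 other genes called higher, while 22 were called lower.

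Markers of cuticle-forming and other cells were read beside these levels. The epidermal list held 195 of the 199 cuticular protein genes described above, so it is no separate evidence. Of these 195 genes, 34 had no reads in any library and 67 were tested. Of the 67, 20 were higher and 21 lower, beside 17.6% higher and 18.6% lower over all genes tested. The summed level of the 195 was 1234 to 1294 CPM in GMS and 1272 to 1497 CPM in WT. Without CPH43 the other 194 summed to 497 to 509 CPM in GMS and 296 to 309.6 CPM in WT, so the summed level of the rest of this list was higher in every GMS library than in any WT library. The Osiris genes are a family reported in insects from epidermis and trachea. Of 6 Osiris genes 5 were tested and called higher in GMS, but Osi9, Osi19 and Osi20, with 2 to 12 reads per WT library, passed the filter on low counts through the GMS libraries, so that count is no support. The 6 had a summed level of 142 to 159 CPM in GMS and 5.65 to 6.47 CPM in WT. Osi19 stood at 72.1 ± 4.93 CPM in GMS and 0.368 ± 0.109 CPM in WT (SD, n = 3 each). The part of a cell type carrying these transcripts in the levels of CPH18 to CPH23 was not tested.

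Other marker lists did not rise together. The counts below stand beside 17.6% higher and 18.6% lower over all genes tested. Of 8 tested fat body genes 0 were higher and 7 lower, summing to 202 to 216 CPM in GMS and 386 to 512 CPM in WT. Of 4 tested haemocyte genes 2 were higher and 2 lower, of 3 muscle genes 1 was higher and 2 lower, the 1 tested midgut gene, Apn1, was lower, and the 1 tested nervous tissue gene, Elav, did not pass. Of 8 tested germ cell genes 3 were higher and 3 lower, with sums of 34405 to 35131 CPM in GMS and 40774 to 46483 CPM in WT. NOS1, a nitric oxide synthase gene, is in that list only through a shared synonym and did not pass.

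Genes that make or tan the cuticle were compared as well. Of 9 genes found by symbol or synonym, all tested, 4 were higher in GMS, 2 lower and 3 did not pass, beside 17.6% higher and 18.6% lower over all genes tested, with a median log2 difference of -0.12. Ebony, which joins beta-alanine to dopamine for pale sclerotised cuticle, averaged 3.41 ± 0.405 CPM in GMS and 0.742 ± 0.158 CPM in WT (SD, n = 3 each), a rise of 2.18 on the log2 scale (edgeR adjusted p = 0.000168). LOC101739336, listed with the synonym black, the name of the Drosophila gene for the enzyme that makes beta-alanine, rose by 2.62 (edgeR adjusted p = 0.000348). Of the yellow family, which acts in cuticle pigmentation, Y-e rose by 0.89 and Y-d fell by 1.90 (edgeR adjusted p = 0.00538 and 0.000113). Th, the tyrosine hydroxylase that starts the tanning pathway, and Lac2, the laccase that oxidises its products, did not pass, with log2 differences of -0.12 and -0.28. Without GMS replicate 1, 2 or 3 or WT replicate 1, 1 gene of the 9 was lower.

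Hormone and transcription factor genes known from moulting were read next. Of 16 genes, all tested, 4 were higher in GMS, 1 lower and 11 did not pass, a share of higher calls near the 17.6% over all genes tested, with a median log2 difference of 0.14. Leaving out WT replicate 3 gave 7 higher and 3 lower, and leaving out GMS replicate 1 or 3 gave 2 higher and 0 lower. Cyp18a1, the cytochrome P450 that inactivates ecdysteroids, averaged 86.0 ± 2.01 CPM in GMS and 8.07 ± 0.666 CPM in WT (SD, n = 3 each; edgeR adjusted p = 3.23e-07). Hr3, a nuclear receptor induced by ecdysone, rose by 0.48 on the log2 scale (edgeR adjusted p = 0.00110). Ftz-f1, a nuclear receptor that follows the ecdysone pulse and is known in the silkworm to act on some cuticular protein genes, rose by 0.61 (edgeR adjusted p = 0.0119), a call lost when GMS replicate 1 or 3 was left out (edgeR adjusted p = 0.0523 and 0.0529). LOC100862655, listed with the synonym SRC, rose by 0.24 (edgeR adjusted p = 0.0213), a call lost without any one library but WT replicate 3. EcR, the ecdysone receptor, Br-c, an early ecdysone gene, and E74 did not pass, with log2 differences of -0.08, -0.14 and 0.04. RpP0, a ribosomal protein gene, is in this list only through a shared synonym and did not pass.

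The genes of most similar profile were found by the distance between centred log2 CPM over the 6 libraries, as a description. The nearest to the mean of the 6 genes were GeneID101735534, LOC101742890, LOC101735346, CPT3 and LOC101742330, at distances of 0.352, 0.378, 0.418, 0.775 and 0.782. LOC101735346 is the array gene next to CPH23. CPT3, a Tweedle cuticular protein gene, stood at 38.4, 37.7 and 29.1 CPM in the GMS libraries and had 13 reads in all over the WT libraries. LOC101742890 stood at 208 ± 2.63 CPM in GMS and 2.08 ± 0.236 CPM in WT (SD, n = 3 each). The members themselves lay 0.396 (CPH22) to 2.73 (CPH21) from their own mean, so the measure mainly orders genes by the size of the contrast between strains. With a prior count of 0.5 in place of 2, 2 of these 5 genes, CPT3 and LOC101742330, stayed among the nearest 5.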

How the data were processed

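The authors deposited a table of raw read counts per gene and, for each library, RPKM values per gene, per the file headers. HISAT2 2.1.0 and featureCounts 1.6.2 are named in the submitters' processing notes. The genome build is not given in the sources used here. Per the labels, a TruSeq kit that does not mark the strand was used, so overlapping antisense genes cannot be told apart. The RPKM totals, recovered from the files, were 48248888 to 68701498 reads, and the count table holds 40.1% to 42.5% of them, so RPKM and CPM have different totals.

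GMS was compared with WT by the edgeR 4.0.16 quasi-likelihood test in R 4.3.3 (TMM, filterByExpr, group as the only term, Benjamini-Hochberg adjusted p under 0.05 over 12029 genes), checked on simulated counts. That check changed only well-counted genes by small folds, so it does not cover the WT levels and the folds of the 6 genes. Names and gene order came from RefSeq assembly ASM3026992v2, which named 13030 of 15884 genes. Its coordinates are not printed, since the authors' build is unknown. Genes, lists and members were chosen with earlier results of these data known. The text names the 6 genes, their neighbours up to 5 on each side, other CPH genes of largest change (3 per direction), up to 4 genes of smallest p per list, the 5 of most similar profile and marker examples. A gene that this rule takes is not reported here, and CPH2, CPH28, CPH31 and further markers are not described one by one. CPH43, Osi19, EcR, Br-c, E74, Th, Lac2, LOC101736156 and LOC101746868 were named after their values were seen. Alternatives were DESeq2 1.42.0, other factors and filters, RPKM, the replicate block and each library left out.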

Additional observations from a re-analysis of the deposited data

How the results depend on the processing

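The direction of each of the 6 genes held under every alternative run, which is no support, since they were chosen on that difference. RPKM with a pseudocount gave smaller differences, since adding a constant raises low WT values by the larger factor: with a pseudocount of 0.1 they were 8.14 for CPH18, 4.01 for CPH20, 8.57 for CPH21 and 4.80 for CPH22, and with a pseudocount of 1 they were 5.78 for CPH18, 3.88 for CPH19, 1.39 for CPH20, 5.91 for CPH21, 1.92 for CPH22 and 5.49 for CPH23. Leaving out each library in turn gave 6.62 to 9.02 for CPH20 and 8.30 to 10.70 for CPH22, the high ends without WT replicate 2, and 8.85 to 8.99 for CPH18, 5.10 to 5.24 for CPH19, 9.38 to 9.89 for CPH21 and 6.63 to 7.02 for CPH23.

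Leaving out a library in turn left 4 to 6 genes in the same place of the RPKM order in GMS, the low end without GMS replicate 3, and 4 to 6 in WT, the low end without WT replicate 1 or 2. Of the 5 genes of most similar profile, 2 stayed with a prior count of 0.5 and 1 with uncentred profiles. Without CPH43, a setting chosen after seeing the data, the summed level of the other cuticular protein genes was 201 CPM higher in GMS than in WT, against a difference of -119 CPM with it.

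Leaving out a library in turn gave 1360 to 3549 genes higher in GMS and 1634 to 3555 lower, the high ends without WT replicate 3. It gave 1 to 2 other CPH genes higher, 1 to 2 cuticle formation genes lower, and 2 to 7 hormone and transcription factor genes higher and 0 to 3 lower. The log2 difference of CPH34 ranged from -1.66 to -1.36, and it did not pass the filter, so was not tested, without WT replicate 2 or where 1 CPM in 3 or more libraries was required.

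Library totals alone gave 3264 higher and 1695 lower genes, as the median of all genes moved to 0.15 on the log2 scale, and 1 cuticle formation gene and 0 hormone genes were lower. With DESeq2 size factors and with upper-quartile factors 1 other CPH gene was higher and 2 hormone genes were lower, and upper-quartile factors gave 1720 genes higher and 2538 lower. Without a filter 1 other CPH gene was higher and 0 hormone genes were lower. Where 1 CPM in 3 or more libraries was required, 17 cuticular protein genes were higher and 13 lower. With DESeq2 1 other CPH gene was higher, and CPH34 was at -1.49.

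The replicate numbers of the labels did not pair the libraries: deviations from the group means of same-numbered libraries correlated at 0.05, -0.17 and -0.17. With the replicate block 1450 genes were higher and 1701 lower, 1 other CPH gene was higher, 1 cuticle formation gene and 0 hormone genes were lower, and CPH34 was at -1.43.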

Other observations

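After the 5 genes of most similar profile came 5 more within a distance of 1.02, named after their values were seen. They were Osi9, Osi19, GeneID101735760, Osi20 and GeneID101735891, at distances of 0.794, 0.805, 0.942, 0.985 and 1.02. The distance mainly orders genes by the size of the contrast between strains, so nothing is read from the Osiris genes among them. Osi9 stood at 28.3 ± 1.20 CPM in GMS and 0.151 ± 0.117 CPM in WT, and Osi20 at 18.3 ± 1.15 CPM in GMS and 0.216 ± 0.0726 CPM in WT (SD, n = 3 each). The gloverin gene glv1, of an antibacterial peptide, came in place 11, with 476 reads in GMS and 1 in WT, and the glycine-rich cuticular gene CPG20 in place 15, with 1134 reads in GMS and 15 in WT.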
